A study of Mus musculus with 2 samples.

Results

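The *Meg3* ChIRP-seq peaks of mouse chromosome 15 that lie outside L1 elements and outside long terminal repeats (LTRs) were examined, 207 of the 2763 peaks in both deposited lists. They were chosen from the lists themselves, as every peak on chromosome 15 whose annotation names neither a repeat of the L1 family nor one of the LTR class. β-actin KO MEFs gave 77 of them, out of 1554 peaks, and WT MEFs gave 130, out of 1209 peaks. MEFs are connective tissue cells cultured from mouse embryos. The KO cells lack β-actin and, according to the study, come from an embryo in which that loss is lethal and carry more α-smooth muscle actin, whereas the WT cells have β-actin. Both genotypes were fixed with 1% glutaraldehyde for 10 min, and the chromatin was sheared and hybridized to an odd or an even pool of *Meg3* probes. The authors merged 4 libraries per genotype, 2 from each pool, before MACS2 called peaks against input at a q value of 0.05. There is therefore 1 list for KO and 1 for WT and no replicate list, and a difference between them compares lists, not cultures. The lists hold no RNA levels, so the fibroblast label could not be checked against marker genes. They also hold no read depth, and every score is 1, which leaves peak strength unknown.

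*Meg3* is a long non-coding RNA transcribed from an imprinted locus on chromosome 12, and it can associate with chromatin at sites far from its own gene. In ChIRP, biotinylated antisense oligonucleotides capture an RNA from crosslinked chromatin, and the DNA held with it is sequenced, so that a peak marks DNA recovered with the RNA and not a change in any gene. Chromosome 15 carries long gene-poor stretches in its first part. Its distal part holds the gene for the cytolinker plectin, the apolipoprotein L genes beside the non-muscle myosin gene *Myh9*, the type II keratin genes and the Hoxc cluster.

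The sequences under 7 of the peaks are printed here because later results turn on them: the only KO and WT pair within 1 kb of each other (*Tmem65*), peaks at 2 promoters of the gene with the most peaks (*Plec*), a CpG-rich KO promoter peak (*Ep300*), a KO peak in intron 1 of a gene for a partner of actin (*Myh9*) and a peak with a long run of the searched GA motif (*Scube1*). They were picked after their values were seen. All are read from the plus strand of GRCm38, 5′ to 3′, around the centre of the peak. They stand at chr15:58822869-58823068 (*Tmem65* KO, in exon 1), chr15:58823664-58823825 (*Tmem65* WT, upstream of the start), chr15:76195747-76195946 (*Plec* WT, promoter), chr15:76199094-76199293 (*Plec* KO, another promoter), chr15:81585882-81586081 (*Ep300* KO, promoter), chr15:77841682-77841881 (*Myh9* KO, intron 1) and chr15:83722567-83722766 (*Scube1* WT, intron). Capitals mark CpG dinucleotides, except in *Scube1*, where they mark the run that holds the motif.
Tmem65 KO: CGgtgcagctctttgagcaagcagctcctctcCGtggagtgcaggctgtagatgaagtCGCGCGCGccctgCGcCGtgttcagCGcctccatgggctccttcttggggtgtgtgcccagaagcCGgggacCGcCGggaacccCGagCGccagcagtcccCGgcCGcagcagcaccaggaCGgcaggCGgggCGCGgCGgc
Tmem65 WT: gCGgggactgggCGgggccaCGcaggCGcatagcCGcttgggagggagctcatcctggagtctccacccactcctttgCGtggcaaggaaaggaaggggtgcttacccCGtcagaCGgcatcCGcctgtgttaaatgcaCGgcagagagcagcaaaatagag
Plec WT: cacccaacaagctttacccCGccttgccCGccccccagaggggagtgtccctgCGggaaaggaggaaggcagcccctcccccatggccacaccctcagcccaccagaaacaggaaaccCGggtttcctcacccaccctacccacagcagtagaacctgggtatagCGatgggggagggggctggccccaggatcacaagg
Plec KO: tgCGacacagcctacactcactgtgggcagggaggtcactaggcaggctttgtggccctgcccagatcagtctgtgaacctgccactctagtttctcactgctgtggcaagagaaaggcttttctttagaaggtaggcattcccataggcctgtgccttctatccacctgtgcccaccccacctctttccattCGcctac
Ep300 KO: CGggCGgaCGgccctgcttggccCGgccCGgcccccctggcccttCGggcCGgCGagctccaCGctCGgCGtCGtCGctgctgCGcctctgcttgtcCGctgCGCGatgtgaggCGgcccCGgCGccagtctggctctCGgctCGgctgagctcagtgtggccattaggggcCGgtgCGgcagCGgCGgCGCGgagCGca
Myh9 KO: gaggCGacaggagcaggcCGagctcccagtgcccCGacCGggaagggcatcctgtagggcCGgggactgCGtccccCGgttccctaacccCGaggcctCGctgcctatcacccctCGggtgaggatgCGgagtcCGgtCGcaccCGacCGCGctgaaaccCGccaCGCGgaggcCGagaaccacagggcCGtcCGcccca
Scube1 WT: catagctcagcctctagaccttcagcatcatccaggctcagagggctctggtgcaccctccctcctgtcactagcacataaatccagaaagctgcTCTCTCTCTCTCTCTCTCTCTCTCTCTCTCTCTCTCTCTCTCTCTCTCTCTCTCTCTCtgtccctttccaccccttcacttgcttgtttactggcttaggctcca

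The sequences show the range found among the peaks. The *Ep300* window holds 29 CpGs in 200 bp and is 77.5% G+C, and the *Myh9* window holds 22 CpGs at 72.5% G+C. The 2 windows at *Tmem65* hold 21 CpGs on the KO side and 14 on the WT side over 200 bp, of which the 162 bp printed for WT, the stretch outside annotated UTRs, show 10. Both *Plec* windows are annotated as promoter-TSS, yet they are poorer in CpG, with 5 in WT and 2 in KO. The *Scube1* window has no CpG at all.

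The share of chromosome 15 in the lists is given as a description, since the chromosome was chosen for its peaks. It carried 17.1% of the KO peaks outside L1 and LTR (77 of 451, 95% Wilson interval 13.9 to 20.8%) and 30.5% of the WT peaks (130 of 426, 26.3 to 35.0%), while it makes up 3.95% of the length of the listed chromosomes. Its WT count was 1.69 times its KO count, whereas over the other chromosomes together the KO count was 1.26 times the WT count (374 against 296). The other chromosomes were not alike in this, as WT had more peaks than KO on chromosome 13 (66 against 31) and chromosome 19 (64 against 50), and fewer on chromosome 8 (19 against 71) and chromosome 17 (39 against 56). Counting error alone gives an exact Poisson interval of 60.8 to 96.2 around the 77 KO peaks and 109 to 154 around the 130 WT peaks, with 95% confidence. Per Mb, chromosome 15 had 1.99 peaks over both lists, chromosome 19 had 1.86, chromosome 17 had 1.00, chromosome 13 had 0.806 and chromosome 8 had 0.696. Since the depth of the libraries is not known, more peaks and deeper reads cannot be told apart, and the number of peaks was not tested between genotypes.

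**Figure D1:**
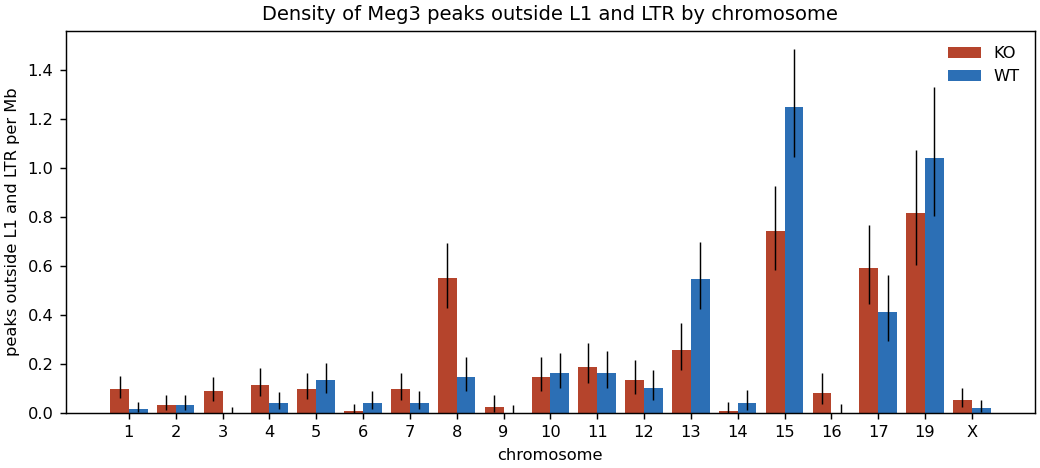
Peaks outside L1 and LTR per Mb (vertical axis) on each chromosome with at least 1 such peak (horizontal axis), with red bars for KO and blue bars for WT, and lines for the 95% exact Poisson interval of the count. Chromosomes 15 and 19 have the highest WT bars, and chromosome 8 is one where the KO bar is the higher.

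Along the chromosome, most members lay in the distal, gene-rich part in both genotypes. The part of the 104 Mb beyond its midpoint held 67 of 77 peaks in KO (87.0%, with an interval from 77.7 to 92.8%), and in WT it held 115 of 130 (88.5%, from 81.8 to 92.9%), beside 79.7% of the 774 protein-coding genes of the chromosome. The KO and WT shares differed by -1.45 percentage points (adjusted p = 0.826, two-sided Fisher's exact test, Benjamini-Hochberg over 4 shares). The stretch from 70 to 90 Mb alone held 54.5% of KO and 56.9% of WT peaks, beside 44.1% of the coding genes (341 of 774). In that stretch the 10 Mb window from 70 to 80 Mb had 28 KO and 47 WT peaks, and the next had 14 and 27.

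By contrast, the first 20 Mb had 1 KO and 4 WT members. The member nearest to the start of the chromosome, from WT, lay at chr15:3217861-3218019, 52827 bp upstream of *Selenop*, the gene for a selenium transport protein. The one nearest to the far end, also from WT, lay at chr15:103762058-103762546 and was assigned to *Mucl1*. The longest stretch without a member was 14.5 Mb, before *Basp1*, and the next were 8.77 Mb between *Rspo2* and *Eif3h* and 5.92 Mb between *Wisp1* and *Peg13*. The proto-oncogene *Myc* lay inside a stretch of 4.07 Mb without a member, 2008 kb from the nearest WT member and 3162 kb from the nearest KO member. Peaks at L1 or LTR were not counted for these distances and can lie nearer.

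The counts followed gene density as a description. Over the 11 windows of 10 Mb, Spearman's rank correlation between peaks and coding genes was 0.800 for KO and 0.943 for WT, and between peaks and G+C content it was 0.809 and 0.888. Neighbouring windows, gene density and G+C content are tied to each other here, so these values do not separate one from another. At 1 Mb, 55 of 105 windows held no member of either list. The fullest were the window from 76 to 77 Mb, with 8 KO and 8 WT peaks, that from 77 to 78 Mb, with 8 and 6, and that from 102 to 103 Mb, with 8 and 5.

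**Figure D2:**
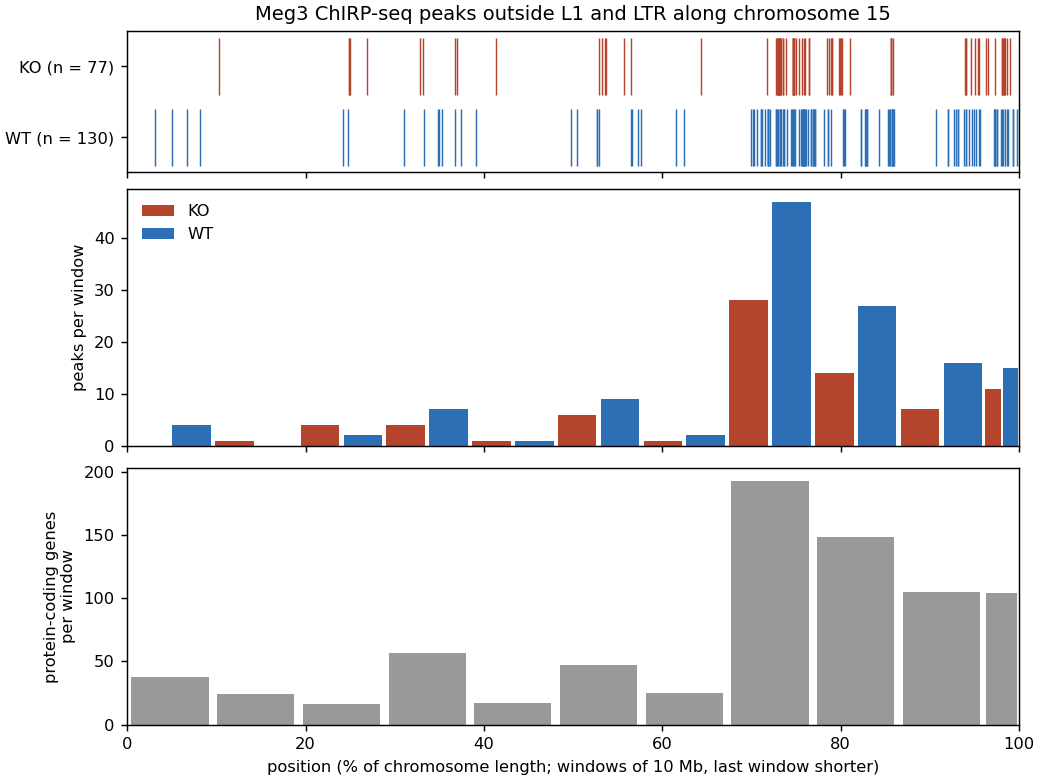
Each line in the top panel is 1 peak at its position in percent of the chromosome length (horizontal axis), KO in red and WT in blue. The middle panel counts peaks and the bottom panel protein-coding genes per 10 Mb window, and both rise in the window from 70 to 80 Mb, with 28 KO peaks, 47 WT peaks and 193 genes.

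Of the members, 99 (47.8%) fell in 18 clusters, a cluster being at least 3 peaks whose centres follow each other at 100 kb or less. Lists were combined for this, so a cluster says how close the peaks are and nothing on their strength. In KO, 46 of 77 peaks were in a cluster (59.7%, 48.6 to 69.98%), and in WT 53 of 130 were (40.8%, 32.7 to 49.4%). Both genotypes were present in 14 clusters. The clusters of WT peaks alone were upstream of *Mroh5* (3 peaks), at *Psca*, *Slurp1*, *Lypd2* and *D730001G18Rik* of the Ly6 family (4 peaks) and at *Gm15569* and *Tbc1d22a* (4 peaks), and that of KO peaks alone was at *Serhl*, *Rnu12*, *A4galt* and *Arfgap3* (4 peaks). All but 2 of the 18 clusters lay beyond 70 Mb. This number moves with the rule for the gap, as 68 members were in 15 clusters at 50 kb and 159 in 22 clusters at 250 kb.

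The cluster with the most peaks ran over 254.9 kb from *Apol10b* to *Myh9* (chr15:77611989-77866848), with 7 KO and 5 WT peaks. It covers apolipoprotein L genes, whose proteins bind lipid inside cells, and *Myh9*, which encodes the heavy chain of non-muscle myosin IIA, a motor that pulls on actin filaments. *Apol11b* was the nearest gene of 4 KO peaks and 1 WT peak. They stood between 23225 bp upstream and 18437 bp downstream of its start, and 4 of the 5 were intergenic. *Apol8* was nearest to 2 KO peaks and 1 WT peak, but 2 of these lay inside the *Myh9* transcript, a WT peak in exon 35 and a KO peak in intron 18. *Myh9* itself was nearest to a KO peak 394 bp downstream of its start, whose sequence is printed above, to a WT peak 22057 bp downstream in the same intron and to a WT peak 24578 bp upstream.

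The next cluster ran over 380 kb from *Top1mt* to *Mir6952* (chr15:75668803-76048831), with 7 KO and 4 WT peaks. Its KO peaks included 3 at promoters, those of *Mafa* at -620 bp, *Eef1d* at -40 bp and *Pycrl* at -366 bp from the start. *Mafa* encodes a transcription factor of insulin-producing cells, *Eef1d* a translation elongation factor subunit and *Pycrl* an enzyme of proline synthesis. A second KO peak assigned to *Mafa* lay 5910 bp upstream, and the remaining KO peaks were assigned to *Zfp623*, *Fam83h* and *Mir6952*, the last of them in exon 32 of the polarity gene *Scrib*. The WT peaks were assigned to *Top1mt*, a mitochondrial topoisomerase gene, *Rhpn1*, *Zc3h3* (194 bp downstream of the start) and *Zfp707*.

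Another 3 clusters held 9 peaks each. Around *Triobp*, whose protein bundles actin filaments and binds the exchange factor TRIO, there were 7 WT and 2 KO peaks (chr15:78843035-79042797). *Triobp* was the nearest gene of 3 WT peaks, at 6016, 7395 and 105 bp downstream of a start, and a WT peak assigned to *Mir6956* lay in exon 16 of the same gene. The other WT peaks there were assigned to *Cdc42ep1*, an effector of the small GTPase CDC42, to the phosphatase gene *Pdxp* and to *Galr3*, and the KO peaks to *Lgals1* (galectin-1) and *Galr3*. The second of the 3, at *Mapk12* and *Mapk11*, genes of p38 kinases (chr15:89140168-89387665), had 4 KO and 5 WT peaks. In it 3 peaks lay in or at the end of the semaphorin receptor gene *Plxnb2*, namely KO peaks assigned to *Mapk11* and *Mir7118* and a WT peak assigned to *Mir7118*. The others were assigned to *Mapk12*, *Ppp6r2*, *Mir6959* in both lists, *Adm2* and *Klhdc7b*. The third, from *Krt18* to *Sp7* (chr15:102037416-102362966), had 6 KO and 3 WT peaks. Its KO peaks were assigned to the keratin gene *Krt18*, to *Tns2*, *Spryd3*, *Itgb7* and *Espl1*, and to *Sp7*, which encodes a transcription factor of bone-forming cells. Its WT peaks were assigned to *Tns2*, *Soat2* and *Gm36246*.

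No KO member overlapped a WT member or any other WT peak. Over all chromosomes, 0 of the 1554 KO peaks overlapped a WT peak. The study classed peaks as shared or unique and reports some that KO and WT have in common. With 0 overlaps, the deposited lists do not hold such shared peaks in both. How they were left out is not given in the sources used here, and the reported counts differ from those of the lists. The absence of overlap is therefore not read as a difference between genotypes. The same holds for distances between KO and WT peaks and for genes and clusters with peaks of 1 list only. A single pair lay within 1 kb, at *Tmem65*, which encodes a mitochondrial membrane protein. There the KO peak (chr15:58822849-58823087) lay in exon 1, 459 bp downstream of the start, and the WT peak (chr15:58823621-58823830) lay 298 bp upstream of it, 533 bp from the KO peak. Within 10 kb of a member of the other list there were 13 KO (16.9%) and 15 WT peaks (11.5%), and within 100 kb there were 49 KO (63.6%) and 50 WT peaks (38.5%). The WT list is the longer, so KO peaks had more peaks to lie near and the KO and WT percentages are not like for like.

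By genomic category, the members were mostly in genes in both lists. Exons or introns held 39 KO peaks (50.6%, between 39.7 and 61.5%) and 72 WT peaks (55.4%, between 46.8 and 63.7%), a difference of -4.74 percentage points (adjusted p = 0.753, two-sided Fisher's exact test, Benjamini-Hochberg over 4 shares). Intergenic DNA held 15 KO peaks (19.5%, 12.2 to 29.7%) and 38 WT peaks (29.2%, 22.1 to 37.6%), with an adjusted p = 0.558 by the same exact test. The promoter-TSS category held 14 KO peaks (18.2%, 11.2 to 28.2%) and 11 WT peaks (8.46%, 4.79 to 14.5%). This pair was not tested, so no call is made on whether the promoter shares differ. On the other chromosomes the promoter-TSS share was also higher in KO, with 13.6% in KO and 8.78% in WT. Exons alone held 9 KO and 24 WT peaks, introns 30 and 48, transcription end sites 5 and 3, 5′ UTRs 1 and 3, and 3′ UTRs 3 and 3. None of the 4 tested shares passed the threshold of 0.05 between KO and WT.

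Set against the 670 peaks outside L1 and LTR on other chromosomes, the members were more often in gene bodies and less often intergenic. Repeats are named only for intron and intergenic peaks, so leaving out L1 and LTR took peaks from these categories alone. It left 207 of 275 peaks on chromosome 15 and 877 of 2763 over all chromosomes. The shares compared are therefore partly set by the choice of peaks, and how far was not tested. The difference passed the test without peaks at any named repeat but not among peaks of unique sequence. The former setting again drops only intron and intergenic peaks. Gene bodies held 53.6% of the members and 39.3% of the other peaks (111 of 207 against 263 of 670, adjusted p = 0.000587, two-sided Fisher's exact test over both lists). Intergenic DNA held 25.6% against 41.04% (adjusted p = 0.000214, exact), and 60.4% against 51.0% lay within 10 kb of a TSS (adjusted p = 0.0277, exact). Promoter-TSS peaks made up 12.1% and 11.5% (adjusted p = 0.805, exact). Without peaks at any named repeat, gene bodies held 55.1% against 40.5% (adjusted p = 0.00148, exact) and intergenic DNA 20.8% against 36.7% (adjusted p = 0.000232, exact). When, by a choice made after the data were seen, only peaks whose sequence is unique in the genome were kept, that is, those whose median 31-mer occurs once, the gene-body shares were 54.1% and 47.8% (adjusted p = 0.579, exact) and the intergenic shares 24.2% and 28.3% (adjusted p = 0.579, exact). Within 10 kb of a TSS the shares then were 62.4% and 62.1%. Chromosome 13 stood apart among the others, with 75.3% of its peaks intergenic and 24.7% in unique sequence, whereas chromosome 19 had 17.5% intergenic peaks and 56.1% in gene bodies. Without chromosome 13, a setting also chosen after the data were seen, the gene-body shares were 53.6% and 42.8% (adjusted p = 0.0242, exact), and the share within 10 kb no longer passed (adjusted p = 0.491, exact). In the KO list alone the gene-body shares (50.6% against 35.3%, adjusted p = 0.0282, exact) and the intergenic shares (19.5% against 42.2%, adjusted p = 0.000652, exact) passed. In the WT list alone none of the 4 shares passed (adjusted p = 0.0774 for gene bodies and for intergenic DNA, exact). Peaks of 1 list are not independent of each other, so these p values compare lists of peaks.

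**Figure D3:**
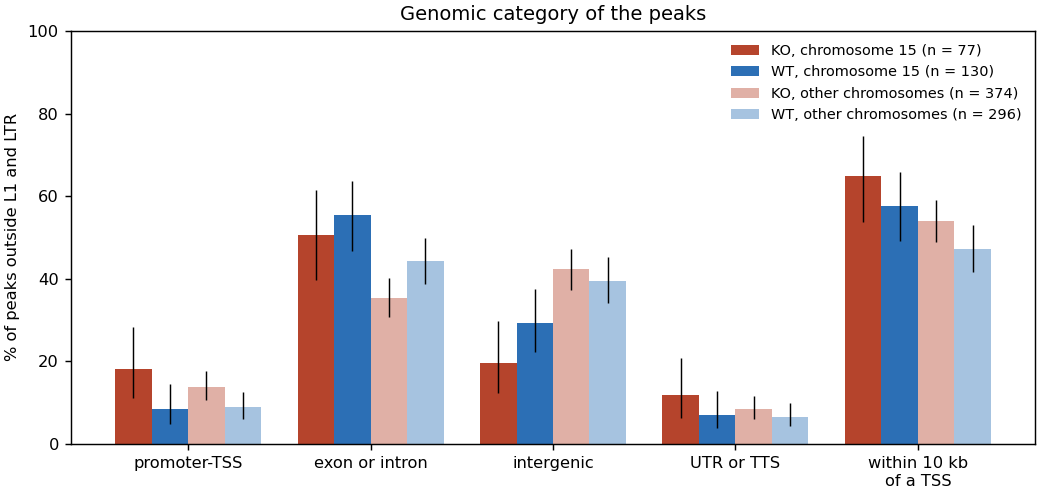
Percent of peaks outside L1 and LTR in each category (vertical axis), on chromosome 15 (dark bars) and on the other chromosomes (light bars), KO in red and WT in blue, with 95% Wilson intervals as lines. The dark bars are higher for exon or intron and lower for intergenic DNA, 53.6% against 39.3% and 25.6% against 41.04% over both lists. This difference did not pass the test among unique sequences. The shares are partly set by leaving out L1 and LTR, which removes only intron and intergenic peaks.

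The annotated distance to the TSS of the assigned gene had a median of 5910 bp in KO and 7886 bp in WT. On the other chromosomes the medians were 7610.5 bp in KO and 11125 bp in WT. Within 10 kb there were 50 KO peaks (64.9%) and 75 WT peaks (57.7%), which differed by 7.24 percentage points (adjusted p = 0.753, exact). Within 1 kb there were 22 KO (28.6%, 19.7 to 39.5%) and 28 WT peaks (21.5%, 15.3 to 29.4%), and within 100 bp there were 5 and 4. More of the peaks within 1 kb were downstream of the start than upstream, 13 against 9 in KO and 19 against 9 in WT. Over 100 kb from the assigned TSS lay 3 KO and 5 WT peaks, among them the KO peak in the 3′ UTR of *Rspo2*, 148584 bp from the start. The WT peak 240827 bp upstream of *Mroh5* was the most distant by this measure. Peaks were short in both lists, with a median width of 208 bp in KO and 200 bp in WT.

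**Figure D4:**
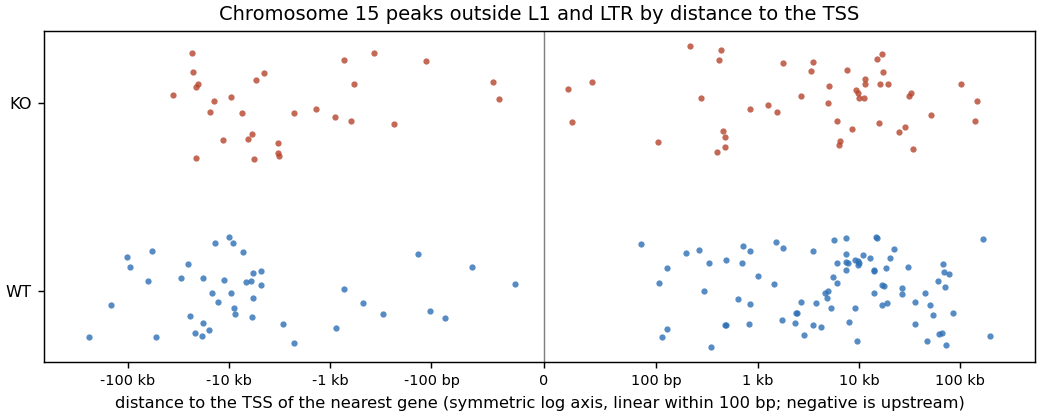
Each point is 1 chromosome 15 peak at its signed distance from the TSS of the assigned gene (horizontal symmetric log axis, linear within 100 bp, negative values upstream), KO in red and WT in blue, with vertical scatter only to separate points. Few points lie close to 0, since 5 KO and 4 WT peaks are within 100 bp, and most lie between 1 and 100 kb on either side.

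The 14 KO promoter peaks stood at genes of several functions. Transcription and chromatin genes among them were *Ep300* (-233 bp), which encodes the histone acetyltransferase p300, *Hsf1* (+276 bp), the heat shock factor, at a promoter that the annotation gives to the neighbouring gene *Bop1*, *Scrt1* (-732 bp), a zinc finger repressor, *Mafa*, and *Rpap3* (+43 bp), whose protein helps to assemble RNA polymerase II. Genes of trafficking and membranes were *Retreg1* (+21 bp), a receptor for autophagy of the endoplasmic reticulum, *Arfgap3* (-113 bp), a regulator of Golgi transport, *Lmbr1l* (-45 bp) and the iron transporter gene *Slc11a2* (+25 bp). The others were *Plec* (+213 bp), *Lgals1* (-588 bp), *Tob2* (-901 bp), which encodes an antiproliferative protein, *Eef1d* and *Pycrl*.

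The 11 WT promoter peaks stood at the transcription factor genes *Klf10* (-724 bp) and *Atf7* (-88 bp), at *Hdac7* (-470 bp), which encodes a histone deacetylase, and at *Plec* (-136 bp) and *Tmem65*. They also stood at *Mpst* (-26 bp), an enzyme of sulfur metabolism, at *Fam49b* (-104 bp), a regulator of actin at the cell edge, and at the Wnt ligand gene *Wnt7b* (+292 bp), here at the promoter of the transcript *AU022754*. The remaining WT promoter peaks were at *Mir1943* (-871 bp), *Gm15569* (-64 bp) and *9330020H09Rik* (+86 bp). *Plec* was the only gene with promoter peaks in both lists, at different promoters.

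Peaks within 1 kb of a start but in another category added 8 KO and 17 WT peaks. The KO peaks were at *Zfp622* (478 bp), *Trio* (832 bp), *Sntb1* (476 bp), *Tmem65*, *Wisp1* (104 bp), *Myh9*, *Mapk12* (438 bp) and the odorant receptor gene *Olfr279* (414 bp). *Trio* encodes a guanine nucleotide exchange factor, and *Wisp1* (also *Ccn4*) a secreted matrix-associated protein. The WT peaks included those at *Chrac1* (489 bp), a subunit of a chromatin remodelling complex, *Foxh1* (840 bp), a transcription factor of the Nodal pathway, *Taf2* (126 bp), a subunit of the general transcription factor TFIID, and *Tef*, a transcription factor of circadian output with 2 peaks at 113 and 486 bp. The others were at *Nipal2*, *Trmt12*, *Adcy8*, *Zc3h3*, *Plec*, *Cdc42ep1*, *Triobp*, *Galr3*, *Mcat*, *Hdac7*, *Ccdc184* and *Krt87*, from 105 to 839 bp downstream.

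By nearest gene, the members named 167 genes, 68 in KO and 114 in WT, of which 15 were in both lists (22.1% of the KO genes and 13.2% of the WT genes). A gene with 1 peak was the rule, with 140 such genes, 19 with 2 peaks and 8 with at least 3. In all, 7.75% of the 774 protein-coding genes of the chromosome were the nearest gene of a KO peak, 12.4% of a WT peak and 18.5% of either. A peak inside 1 gene can be assigned to another with a closer start, and the gene that holds the peak differed from the assigned one for 40 of the 152 peaks whose transcript could be named. The nearest gene is the one that the annotation assigned. It also had the nearest start in RefSeq for 161 of 207 members (77.8%). Genes in both lists besides *Plec*, *Apol11b*, *Apol8*, *Myh9* and *Hdac7* were *Elfn2*, *Galr3*, *Mir6959*, *Mir7118*, *Mpst*, *Nr4a1*, *Rpap3*, *Taf2*, *Tmem65* and *Tns2*.

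*Plec* had the most peaks, 3 in KO and 3 in WT. Plectin links intermediate filaments to actin and to adhesion sites, and its gene has many alternative first exons. Its KO peaks lay at chr15:76180373-76180579 in exon 31, at chr15:76199075-76199312 at a promoter and at chr15:76234592-76234804, 3320 bp upstream and inside *Parp10*. Its WT peaks lay at chr15:76188096-76188388 in exon 17, at chr15:76195714-76195979 at a promoter and at chr15:76205541-76205822 in a first exon, 640 bp from that start. KO and WT peaks of these lists, which share no overlapping peak, were thus interleaved along the gene, and the closest pair was 3095 bp apart. *Hdac7* had 1 KO peak 2697 bp downstream and 2 WT peaks, 707 bp downstream and 470 bp upstream. *Tbc1d22a*, *Triobp* and *Mroh5* had 3 WT peaks each and no KO peak. Those assigned to *Mroh5* were intergenic, 94129, 145990 and 240827 bp upstream, and the predicted genes *Gm52173*, *Gm32355* and *Gm32405* had nearer starts in RefSeq.

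Among pairs in both lists, *Taf2* had a WT peak in its 5′ UTR and a KO peak 7494 bp upstream in *Dscc1*, 7351 bp apart. *Mpst* had a WT peak at its promoter and a KO peak in intron 1, 1937 bp apart. *Tns2*, which encodes the adhesion protein tensin 2, had a KO peak in intron 15 and a WT peak in exon 20, 2104 bp apart. *Nr4a1*, an orphan nuclear receptor gene, had a KO peak 20323 bp upstream and a WT peak in exon 5, 26159 bp apart. *Rpap3* had its KO peak at the promoter and its WT peak 35707 bp downstream, beyond the gene.

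Gene lists of chromosome 15, chosen with earlier results of these data known, gave the following counts. The shares of all coding genes were 7.75% in KO, 12.4% in WT and 18.5% in either. Because of that choice, a count above these shares is not read as a result about the genes. Of 13 genes of actin and adhesion, 5 were nearest to a KO peak (*Myh9*, *Parvg*, *Plec*, *Tns2* and *Trio*) and 5 to a WT peak (*Myh9*, *Plec*, *Rac2*, *Tns2* and *Triobp*), 7 genes over both. *Mrtfa*, *Ptk2*, *Asap1*, *Arc*, *Fbln1* and *Parvb* were the nearest gene of no peak. The peak assigned to *Parvg* lay 35578 bp upstream, in an intron of its neighbour *Parvb*, and that of *Rac2*, a GTPase of blood cells, in intron 2. Of 19 genes of growth and signalling, *Wisp1* and *Rspo2*, a gene of an enhancer of Wnt signalling, were nearest to a KO peak, and *Nov*, *Lifr*, *Trib1* and *Wnt7b* to a WT peak. Long genes have more room for a peak, and gene length was not taken into account.

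Of 20 genes of the Ly6 family, which encode small proteins mostly anchored to the cell surface, 0 were nearest to a KO peak and 5 to a WT peak (*Psca*, *Slurp1*, *Lypd2*, *D730001G18Rik* and *Ly6i*). These genes are neighbours, and 4 of the 5 make up the WT cluster named above. Of 26 genes with keratin symbols, *Krt18* was nearest to a KO peak and *Krt4* and *Krt87* to a WT peak, and *Krt85*, also assigned a WT peak, is not in the gene table used. Of 9 Hoxc genes, which pattern the body axis, *Hoxc8* alone had a peak assigned, from KO, 5093 bp downstream of its start. The 4 genes of heparan sulfate, chondroitin and hyaluronan (*Ext1*, *Sdc2*, *Has2* and *Sult4a1*) and the 5 classical cadherin genes had none. Of 5 genes of phospholipases and lipid, *Enpp2*, which encodes the lysophosphatidic acid-producing enzyme autotaxin, was nearest to a WT peak in intron 25.

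The DNA under the members was rich in G+C and mostly unique. The median G+C content of the 200 bp around the centre was 55.5% in KO and 55.5% in WT, against 42% over the 503259 tiles of 200 bp of the chromosome and 46.5% over those beyond 70 Mb. Peaks on the other chromosomes had a median of 52.5%, also above these tiles, but no tiles of their own chromosomes were measured. The tiles include L1 and LTR sequence, whereas peaks annotated to it were left out, so peaks and tiles are not like for like. At least 50% G+C was found in 73.9% of the members, in 57.9% of the peaks on the other chromosomes and in 17.3% of the tiles. The CpG content relative to its expectation from C and G had a median of 0.286 in KO and 0.292 in WT, against 0.149 in the tiles. For the peaks on the other chromosomes the medians were 0.222 in KO and 0.182 in WT. These medians are descriptions, because G+C content also affects how well DNA is recovered and sequenced, and its part in the peaks was not tested. Promoter members had a median G+C of 65% and a CpG ratio of 0.731, exon members 64.5% and 0.527, intron members 52.5% and 0.206, and intergenic members 50.5% and 0.162. A CpG island was named by the annotation for 5 KO and 4 WT peaks. None was named for some CpG-rich promoter and exon peaks, such as those of *Retreg1* (29 CpGs in 200 bp) and *Zfp622* (30 CpGs). The count is therefore not the number of peaks in CpG islands.

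**Figure D5:**
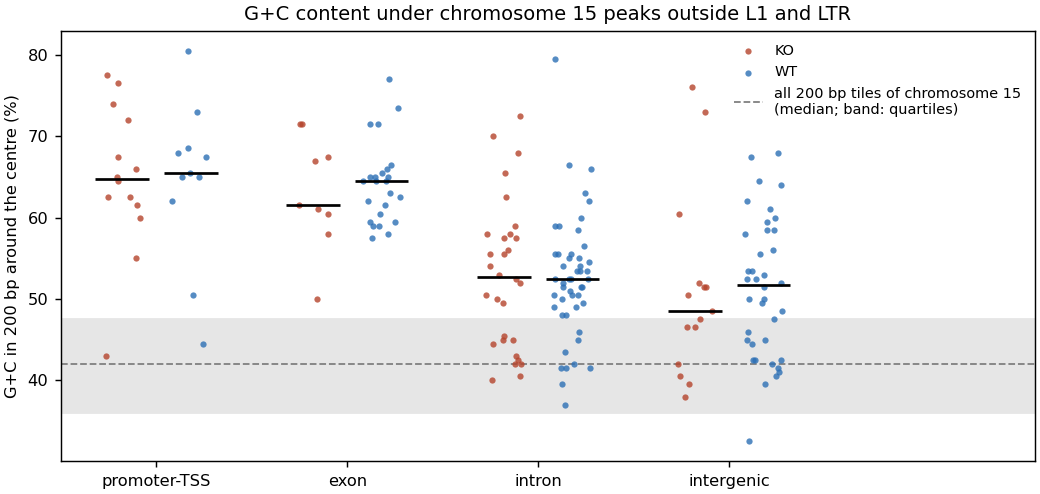
G+C percent in the 200 bp around each peak centre (vertical axis) by category (horizontal axis), 1 point per chromosome 15 peak, KO in red and WT in blue, with black bars for medians. The dashed line and the grey band give the median (42%) and quartiles of all 200 bp tiles of the chromosome, and every black bar lies above the band.

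Other repeats than L1 and LTR were named for 12 KO (15.6%) and 17 WT members (13.1%). They were mostly SINEs in KO (7 of 12) and simple repeats and SINEs in WT (5 and 4 of 17). The median 31-mer of the window occurred once in the genome for 94.8% of KO and 93.1% of WT members, against 86.9% of 1007 evenly spaced tiles and 66.9% of the peaks on the other chromosomes. Because the tiles were not filtered for L1 and LTR, a higher share than in the tiles is partly built into the choice of members. The most repeated window was a KO peak at *Mtdh* in a B1 element, whose median 31-mer had 208.5 copies. The GA repeat motif, searched as the letters GAGAGAGA or TCTCTCTC so that both strands count, was in 4 KO (5.19%) and 6 WT windows (4.62%), against 3.51% of all tiles. Those peaks were assigned to *Scrt1*, *Apol11b* with 2 peaks, and *Krt18* in KO, and to *Lifr*, *Trib1*, *Ly6i*, *Scube1*, *Faim2* and *Calcoco1* in WT. The longest run that a whole peak shared with any of the 16 ChIRP probes, which are 20 bases long, had a median of 8 bases and did not exceed 12. No member thus held a whole probe sequence between its start and end.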

How the data were processed

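Peaks were taken from the 2 HOMER-annotated lists that the authors deposited, 1 per genotype. Per the study's methods, the authors used Trimmomatic for trimming, BWA-MEM for alignment to GRCm38 and Picard for duplicates, then pooled the 4 libraries of a genotype. MACS2 called peaks against input at a q value of 0.05, and HOMER annotated them. No tool versions are given in the sources used here. In the deposited lists, positions, widths and distances are in bp with no normalization, and the score is 1 for every peak. The depth is unknown, so intervals cover the counting of peaks only, and repeats are named by HOMER only for intron and intergenic peaks, so members of other categories may also lie in repeats.

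Chromosome 15 members, gene lists and tests were chosen with earlier results of these data known. Shares carry 95% Wilson intervals. Fisher's exact tests, two-sided and with peaks as units, were run in 2 families of 4 with Benjamini-Hochberg adjustment and a threshold of 0.05. Clusters chained peak centres at 100 kb or less. Windows of 200 bp were read from GRCm38, and 31-mers and 100-mers were counted on both strands of the genome, for tiles only at every 500th tile. Gene positions came from RefSeq on GRCm38. Genes named were those of promoter peaks, of peaks within 1 kb of a TSS, with 3 or more peaks, in both lists, in the 5 clusters with the most peaks, of the peaks at the chromosome ends and of the gene lists. Genes of gaps, of other clusters and of sequence features were named after their values were seen. The methods were tested on simulated data. Scripts ran in Python 3.11.15 (scipy 1.17.1, pandas 2.3.3, numpy 2.4.6, matplotlib 3.10.9, numba 0.67.0).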

Additional observations from a re-analysis of the deposited data

How the results depend on the processing

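No paired analysis was possible because there was 1 pooled peak list per genotype. The comparison with other chromosomes depended most on the processing. One alternative, chosen after seeing the data, kept only peaks whose median 31-mer occurs once. The difference was then 6.36 percentage points for gene bodies, -4.12 for intergenic DNA and 0.318 within 10 kb of a TSS, none past the threshold, and it turned to -0.953 for promoters. In the WT list alone it was 11.1, -10.3 and 10.4 points, none past the threshold, and -0.322 for promoters, which turned sign. The difference within 10 kb also lost its call without peaks at any named repeat (7.30 points), in the KO list alone (10.9), at 1 kb (1.32), against chromosomes 8, 13, 17 and 19 alone (8.87) and without chromosome 13 (3.67), the latter 2 chosen after seeing the data. Without chromosome 13 the promoter difference turned to -0.837. Between KO and WT, the difference beyond the chromosome midpoint turned to 1.62 points without peaks at any named repeat, with no call in either case. Members in clusters went from 99 to 68 at 50 kb and to 159 at 250 kb, as follows from the changed gap. The share of WT windows whose median word occurs once went from 93.1% to 99.2% with 100-mers, as follows from the longer word. The cause of the other changes was not tested. With no depth or replicate lists, the number and strength of peaks could not be compared between genotypes. With L1 and LTR peaks included, the chromosome had 113 KO and 162 WT peaks. The other tested differences kept their direction and their side of the threshold.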
